A study of Daphnia magna with 12 samples.

Results

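Old females of the water flea Daphnia magna that had stopped reproducing were compared with all females that were reproducing, young and old. The 4 old non-reproducing libraries of the series were set against its 8 reproducing libraries, which together make up all 12 libraries, and the 2 reproducing groups entered with equal weight. Old non-reproducing and old reproducing females were 130 to 170 days old and young reproducing females were 20 days old, with 4 libraries in each group. All animals were females of the single clone GB-EL75-69, kept one to a vessel in 20 mL of ADaM medium at 20 °C and fed Scenedesmus acutus at 100000 cells per mL per day. RNA of the sample labelled whole body, somatic was sequenced, and 10987 of 21456 gene models had enough reads to be tested. No young non-reproducing group was analysed here, so age and reproductive state cannot be told apart in the difference from young reproducing females. That difference is part of the comparison with all reproducing females, so the limit holds there too. Moreover, 1 clone gives no view of other genotypes.

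Daphnia females reproduce clonally, carrying eggs and embryos in a brood chamber under the carapace and releasing a brood with each adult moult. Yolk precursors are made outside the ovary, largely in the fat cells, so egg production draws on the metabolism of somatic tissue. Old females can stop laying eggs while still alive, and the labels separate such females from those of like age that still reproduce.

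The deposited counts do not pair gene IDs with gene names, and 0 of the IDs matched the RefSeq gene table of the organism, so 2 gene models that rose and 2 that fell are given by ID and the functions of all are unknown here. For the same reason the labelled tissue could not be checked against marker genes. The IDs name the assembly contig of a gene model and a position index on it. In RNA of whole animals, fewer cells of a type and less RNA per cell cannot be told apart. The labels do not say how many animals gave a library, so p-values measure the spread between these libraries.

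Reads per library ranged from 16015869 to 25659597. Gene models with at least 1 read numbered 15592 ± 293 in the 4 non-reproducing libraries and 15383 ± 790 in the 8 reproducing libraries (mean ± SD). The 10 gene models with the most reads took 15.3 ± 3.69% of the reads in non-reproducing and 19.3 ± 2.85% in reproducing libraries (SD, n = 4 and n = 8), a difference of -4.01 percentage points. A two-sided exact permutation test over all ways to choose 4 of 12 libraries gave p = 0.0626 for this difference, or 0.156 adjusted over 4 library measures. The effective number of genes, which is larger where reads are spread more evenly over genes, was 1250 ± 208 in non-reproducing and 1038 ± 167 in reproducing libraries (adjusted exact permutation p = 0.156). None of the 4 measures passed the adjusted threshold of 0.05.

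Far more genes were called higher than lower in old non-reproducing females against the mean of the young and old reproducing groups. At an adjusted p under 0.05 in the quasi-likelihood test of edgeR, 550 of 10987 genes (5.01%) differed, 499 (4.54%) being higher and 51 (0.464%) lower. Before adjustment the sides were nearly balanced, at 1364 higher (12.4%) and 1167 lower (10.6%) genes with p under 0.05. Among these the lower genes had the larger median change, -1.49 against 0.88 on the log2 scale, and also the larger median standard error, 0.54 against 0.26. The median log2 change over all tested genes was 0.01. Rises of called genes had a median of 1.54 on the log2 scale (quartiles 0.84 and 3.17), and falls a median of -1.89 (quartiles -2.46 and -1.63). A rise of at least 4-fold was fitted for 203 genes and of at least 16-fold for 91, and a fall of at least 16-fold for 1. The genes nearest the threshold had adjusted p-values of 0.04997 inside it and 0.05007 outside it by edgeR, with log2 changes of 0.99 and 0.60.

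The excess of higher calls held in all settings tried, but its size and the number of calls did not. DESeq2 called 1558 genes, 933 higher and 625 lower, so its share of higher calls was 59.9% in place of 90.7%, and 549 of the 550 genes were among its calls. limma-voom with sample weights called 534 higher and 144 lower genes. Giving the 8 reproducing libraries 1 common mean left 199 calls. Single libraries also moved the count: it was 255 without old non-reproducing replicate 3 and 215 without old non-reproducing replicate 4, 352 without old reproducing replicate 1 and 365 without old reproducing replicate 2. Without old non-reproducing replicate 1 it was 788, with 124 lower genes, and without young reproducing replicate 3 there were 221 lower genes among 757.

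**Figure D1:**
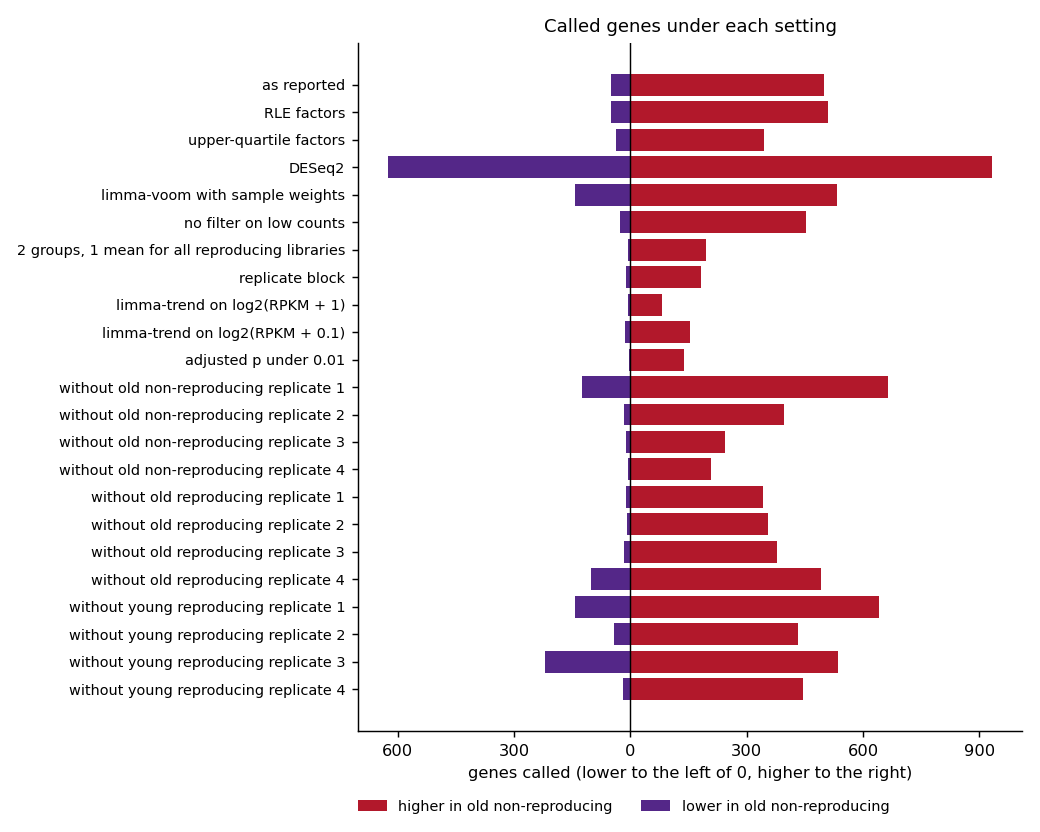
Genes called in the comparison of non-reproducing with reproducing females under each setting (rows), higher to the right and lower to the left of 0 (numbers of genes). The first row is the result as reported, with 499 higher and 51 lower genes, and the last 12 rows each leave out 1 library. Red bars exceed violet ones in each row.

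Each called gene can be split into the difference from each reproducing group. For the 499 higher genes the median log2 change was 0.80 over old reproducing and 2.08 over young reproducing females, and old reproducing exceeded young reproducing females by a median of 0.76. For the 51 lower genes these medians were -1.47, -2.48 and -0.998. Over all tested genes the 3 medians were 0.00, 0.00 and -0.03. The pairs share libraries with each other and with the contrast, so these values are a description. The fitted non-reproducing level lay outside both reproducing groups in 484 of the higher and 50 of the lower genes, where 75.6% of all tested genes showed this. It was at least 2-fold from the nearer reproducing group, on the same side of both, in 230 higher (46.1%) and 35 lower (68.6%) genes, and in 9.91% of all tested genes. Because this contrast chose the genes, nothing is read from those shares. Old reproducing lay above young reproducing females in 431 of the higher genes and below them in 49 of the lower ones. The share of all tested genes on each side was not taken, but their log2 difference between these groups had quartiles of -0.36 and 0.22. Of the 499 higher genes, 174 were also called higher in old over young reproducing females, where 2.8% of all tested genes were. Of the 51 lower genes, 4 were also called lower there, where 0.0728% of all tested genes were. The contrast chose these genes too, so nothing is read from these counts. Against old reproducing females alone, 0 genes (0%) were called by edgeR, while 886 (8.06%) had an unadjusted p under 0.05, 562 higher (5.12%) and 324 lower (2.95%). Against young reproducing females alone edgeR called 1317 genes (12%), 849 higher (7.73%) and 468 lower (4.26%). Old reproducing against young reproducing females gave 316 calls (2.88%), 308 higher (2.8%) and 8 lower (0.0728%).

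**Figure D2:**
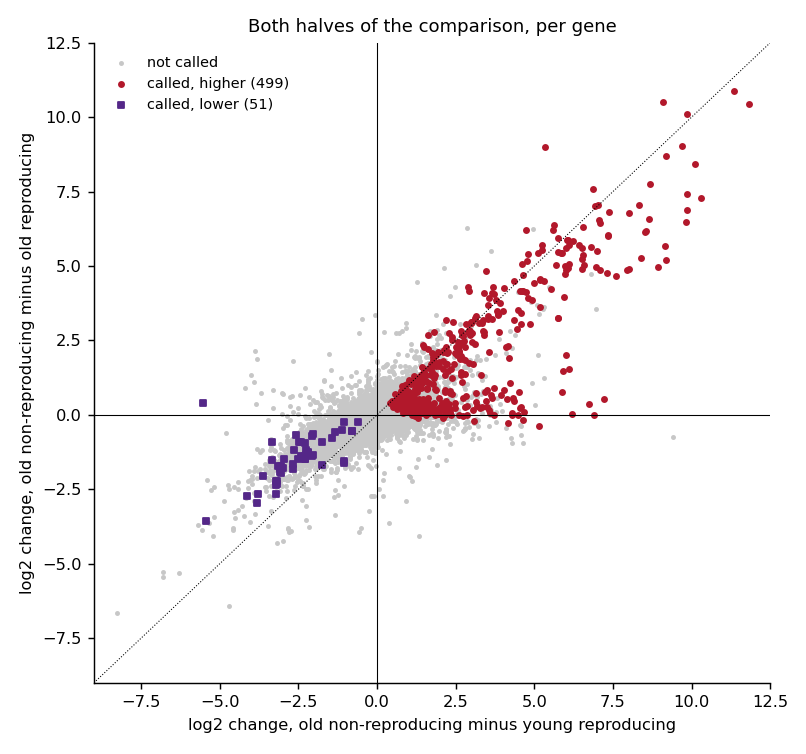
Log2 change of each tested gene between old non-reproducing and young reproducing females (horizontal) and between old non-reproducing and old reproducing females (vertical). Red points are the 499 genes called higher, violet squares the 51 called lower, grey points genes not called, and the dotted line marks equal change against both groups. Most red points lie below the dotted line, and a band of them lies close to a vertical value of 0. Both axes share the old non-reproducing libraries.

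The levels of the single libraries in the higher genes are given by the size of the rise. The same libraries chose and sized these genes, and a small rise passes the test more readily where the libraries of a group agree. The size classes are thus a description from which nothing is read. Among the 182 genes with a rise under 2-fold, the median log2 differences from the reproducing mean were 0.62, 0.77, 0.72 and 0.81 in non-reproducing replicates 1 to 4. In these genes old reproducing females exceeded young reproducing females by a median of 0.82, and old non-reproducing exceeded old reproducing females by a median of 0.29. In 53 of the 182 (29.1%) the reproducing groups lay within 0.5 of each other on the log2 scale, where 64.9% of all tested genes did. Among the 91 genes with a rise of at least 16-fold, the medians were 5.82, 6.86 and 6.30 in non-reproducing replicates 2, 3 and 4 and 0.57 in replicate 1. Replicate 1 was the lowest of the 4 in 87 of these 91 genes (95.6%), where it was the lowest in 25.7% of all tested genes. It did not exceed every reproducing library in 83 of the 91 (91.2%), and over all genes tested in the fit without it, it exceeded them in 9.60%, so this count is near the background. Here old non-reproducing females exceeded old reproducing females by a median of 5.44 and old reproducing exceeded young reproducing females by a median of 0.87. The 112 genes of 4- to 16-fold rise had the same pattern, at 0.23 in replicate 1 and 2.26, 3.36 and 2.79 in replicates 2 to 4. The 114 genes of 2- to 4-fold rise lay in between, at 0.87, 1.11, 1.56 and 1.55 in replicates 1 to 4. Old reproducing replicate 4 had a median of 1.61 in the 91 genes, higher than non-reproducing replicate 1.

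**Figure D3:**
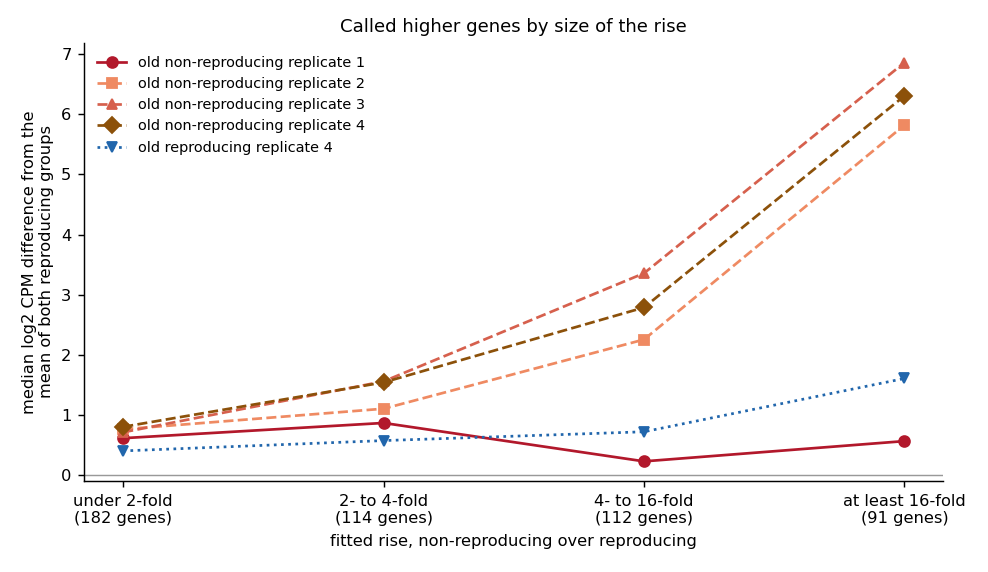
Median log2 CPM (counts per 1000000 reads) difference from the mean of both reproducing groups, for genes called higher, grouped by the size of the fitted rise. Each line is 1 library, the 4 old non-reproducing ones and old reproducing replicate 4. Old non-reproducing replicate 1 stays between 0.23 and 0.87 while replicates 2 to 4 climb to between 5.82 and 6.86.

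The reads these genes took are a description as well, because the same libraries chose the genes. The 499 genes called higher summed to 15976, 52934, 91944 and 71255 CPM in non-reproducing replicates 1 to 4. They summed to between 13393 and 15552 CPM in the old reproducing libraries and to between 8813 and 10444 CPM in the young reproducing libraries. The sum of non-reproducing replicate 1 was thus just above the highest reproducing library, and the others were several times higher. Of the 499 genes, 23 held 50% of the mean non-reproducing sum, and this was not compared with other sets of genes. The 51 genes called lower summed to 894, 677, 763 and 523 CPM in non-reproducing replicates 1 to 4, against 877 to 1635 CPM in old reproducing and 2138 to 3976 CPM in young reproducing libraries. The lowest old reproducing sum, in replicate 4, was below that of non-reproducing replicate 1.

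Since all 12 libraries chose these genes, the position of a library was also read on genes called without it, an analysis chosen after seeing the data. Without old non-reproducing replicate 1, 664 genes were called higher and 124 lower. On the 664 genes replicate 1 lay a median of 0.33 above the reproducing mean, against 1.69 for the other 3 non-reproducing libraries, and it exceeded every reproducing library in 155 genes (23.3%, where 9.60% of all tested genes did). On the 124 lower genes it lay at -0.09, against -2.09 for the other 3. It was on the lower side in 70 of the 124 (56.5%), where 51.7% of all tested genes were. The other 3 libraries helped to choose both lists, so their medians are not on a like footing with those of a library left out. Replicates 2, 3 and 4, left out in the same way, lay at 1.03, 1.499 and 2.38 on the higher genes, which numbered 396, 244 and 209. They exceeded every reproducing library in 58.6%, 60.7% and 82.3% of those genes, where 19%, 16% and 17.2% of all tested genes did. The non-reproducing libraries left in, which helped to choose the genes, lay at 1.57, 1.71 and 1.98. The lower genes called without replicate 2, 3 or 4 were few. Replicate 2 was on the lower side in 11 of 16 (68.8%), replicate 3 in 7 of 11 (63.6%) and replicate 4 in 6 of 6. Over all tested genes these shares were 50.2%, 49.5% and 51.6%, and with so few genes the difference is not read as a result. On the 51 lower genes called with all libraries the medians were -1.64, -1.74, -1.58 and -1.76 in replicates 1 to 4. Replicate 1 helped to choose those genes, so its likeness to the others there is not read as a result.

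Old reproducing replicate 4 departed from its group on the genes called without it. It lay 0.72 above the mean of the remaining reproducing libraries on 491 higher genes, against 0.33, 0.26 and 0.41 for replicates 1, 2 and 3 left out in turn. On 102 lower genes it lay at -1.68, and 101 of them (99%) were on the lower side, where 47% of all tested genes were. It fell below every other reproducing library in 81 of the 102 (79.4%), where 15.7% of all tested genes did. The non-reproducing libraries, which helped to choose those genes, lay at -1.76. Old reproducing replicates 1, 2 and 3, left out in turn, lay at -0.59, -0.58 and -0.40 on 11, 10 and 17 lower genes. Young reproducing replicates 1 and 3 were also low on the lower genes called without them, at -0.66 on 143 and -1.11 on 221 genes. Young reproducing replicates 2 and 4 lay at 1.56 on 41 and 0.85 on 20 genes. The reproducing libraries of both ages were thus uneven on genes called lower without them. Each median comes from its own list, of 10 to 221 genes, so these medians are not on a like footing. Leaving out old reproducing replicate 4 or young reproducing replicate 1 or 3 raised the lower calls to 102, 143 and 221.

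**Figure D4:**
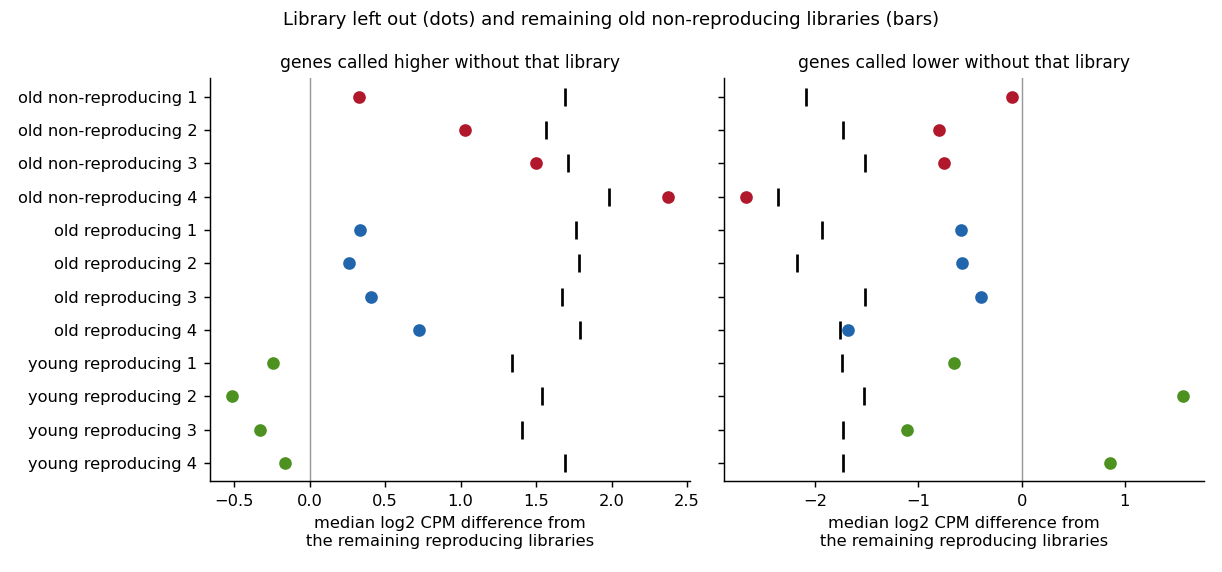
Each row is 1 library. The dot is its median log2 CPM difference from the remaining reproducing libraries, over genes called higher (left) or lower (right) without it. The bar is the median of the non-reproducing libraries in that fit, which helped to choose the genes. Old non-reproducing replicate 1 lies at 0.33 on the left and -0.09 on the right, and old reproducing replicate 4 lies at -1.68 on the right, beside its bar.

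Called genes whose 4 non-reproducing libraries lay clear of all 8 reproducing libraries were fewer. Such separation was found in 175 tested genes (1.59%), 100 above (0.910%) and 75 below (0.683%), of which 66 and 24 were called. By share, 13.2% of the higher and 47.1% of the lower calls were separated. Of the other 433 higher genes, 219 overlapped through old non-reproducing replicate 1 alone and 48 through old reproducing replicate 4 alone among the reproducing libraries. Without old non-reproducing replicate 1 the called and separated genes numbered 539 in place of 90. They numbered 46 without old non-reproducing replicate 4, 194 without old reproducing replicate 4, 201 without young reproducing replicate 1 and 161 without young reproducing replicate 3. Separation is easier to meet with fewer libraries, and its share over all tested genes was not taken in these fits. These counts are thus not on a like footing with the 90. The gap was narrow in most genes, since the lowest non-reproducing library was a median of 1.06 times the highest reproducing library in the 100 genes above, and at least 2-fold in 3 of them. Old reproducing and young reproducing females differed by less than 0.5 on the log2 scale in 61 of the 100 genes above (61.0%) and in 17 of the 75 genes below (22.7%), where 64.9% of all tested genes did.

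Individual genes were taken from those called, separated and averaging at least 10 CPM, of which there were 43 higher and 6 lower. The largest rise was that of augustus_masked-000018F-processed-gene-8.3, a gene model of 1646 nucleotides on contig 000018F. It had 4.59, 892, 2713 and 1817 CPM in non-reproducing replicates 1 to 4, against 0.382, 0.198, 0.513 and 2.88 CPM in old reproducing and 0.544, 0.210, 0.372 and 0.359 CPM in young reproducing replicates 1 to 4. Non-reproducing replicates 2 to 4 were far above every reproducing library, and replicate 1 was close above old reproducing replicate 4. A log2 change of 11.14 was fitted by edgeR (SE 1.29, adjusted p = 0.00284). The reproducing libraries held 103 reads of it in all, 50 of them in 1 library, and the ratio of mean CPM was 1988 (95% Poisson interval 1639 to 2436, counting error of the reproducing reads only). It stayed called under all 21 alternatives that gave it a value.

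For augustus_masked-000035F-processed-gene-1.44, 1221 nucleotides on contig 000035F, non-reproducing replicates 1 to 4 had 1.38, 311, 17.8 and 248 CPM. The 8 reproducing libraries held 10 reads in all, at most 3 in one library, with 0.0545, 0.0396, 0.0395 and 0.173 CPM in old reproducing and 0, 0.0524, 0 and 0.108 CPM in young reproducing replicates 1 to 4. The groups did not overlap, and the lowest non-reproducing library was 7.99 times the highest reproducing one, the widest gap of any gene. The ratio of mean CPM was 2479 (95% Poisson interval 1348 to 5169, counting error of the reproducing reads only), and edgeR fitted a log2 change of 11.11 (SE 1.29, adjusted p = 0.00284). Its call was lost with limma-voom and with limma-trend on log2(RPKM + 1), where RPKM is the deposited value, scaled by library total and gene length.

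**Figure D5:**
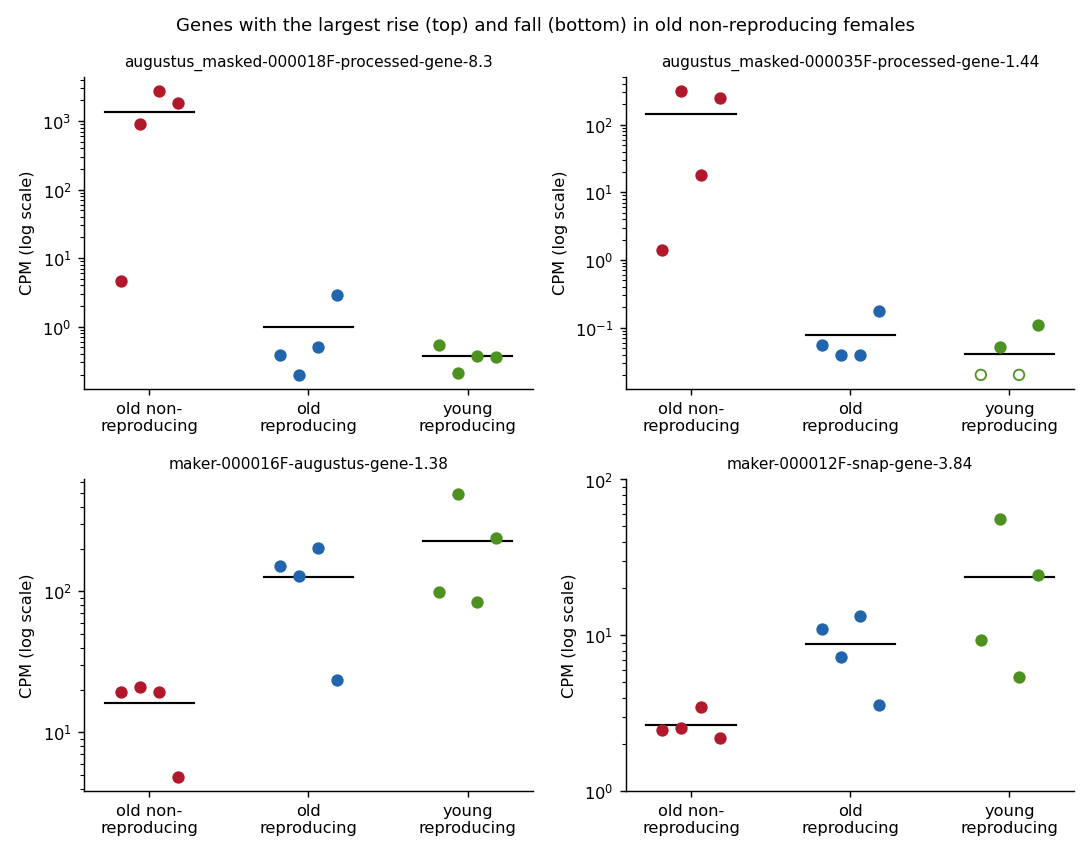
CPM on a log scale in each library (points, replicates 1 to 4 from left to right within a group) and group means (lines) for the 2 gene models with the largest rises (top) and the largest falls (bottom). Open circles at the bottom of the upper right panel mark libraries with 0 reads. In both upper panels old non-reproducing replicate 1 is the lowest of its group, at 4.59 and 1.38 CPM.

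The 10 largest rises in this pool had log2 changes between 1.80 and 11.14, and in all 10 old non-reproducing replicate 1 was the lowest library of its group. Old reproducing and young reproducing females lay within 0.5 of each other on the log2 scale in 6 of the 10, and the smallest adjusted p of any of them between those groups was 0.551 by edgeR. The next gene, on contig 000032F, had 2.40, 297, 873 and 714 CPM in non-reproducing replicates 1 to 4, against 0.276 to 0.807 CPM in old reproducing and 0.372 to 0.839 CPM in young reproducing libraries (log2 change 9.98, SE 1.07, adjusted p = 0.00224 by edgeR). Its level thus stood at under 1 CPM at both reproductive ages. A gene on contig 000014F was more even, with 19.8, 114, 219 and 199 CPM in non-reproducing replicates 1 to 4, against 13.5 to 16.7 CPM in old reproducing and 8.36 to 16.1 CPM in young reproducing libraries (log2 change 3.28, SE 0.44, adjusted p = 0.00365 by edgeR). A second gene of contig 000018F had 49.6, 179, 144 and 126 CPM in non-reproducing replicates 1 to 4, against 30.3 to 42.1 CPM in old reproducing and 14.1 to 33.8 CPM in young reproducing libraries (log2 change 1.97, SE 0.30, adjusted p = 0.00514 by edgeR). Both of these stayed called under all 21 alternatives, and the gene on contig 000032F under all but limma-voom with sample weights (adjusted p = 0.0661). The other 5 had log2 changes of 7.23, 4.43, 2.88, 2.69 and 1.80 and each lost its call under 1 to 4 of them, the last also without old non-reproducing replicate 4.

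The 3 called genes with the most reads among those that rose were not separated, because old non-reproducing replicate 1 fell among the reproducing libraries. One on contig 000011F had 52.8, 2690.1, 5382 and 4338 CPM in non-reproducing replicates 1 to 4, against 43.7, 34.8, 35.4 and 126 CPM in old reproducing and 37.0, 31.5, 31.6 and 44.7 CPM in young reproducing replicates 1 to 4 (log2 change 6.06, SE 0.81, adjusted p = 0.00365 by edgeR). Another on the same contig had 16.6, 2566, 3746 and 3541 CPM in non-reproducing replicates 1 to 4, against 22.02, 10.8, 13.1 and 174 CPM in old reproducing and 7.48, 12.47, 15.6 and 42.3 CPM in young reproducing replicates 1 to 4 (log2 change 6.24, SE 1.13, adjusted p = 0.0118 by edgeR). In both, old reproducing replicate 4 was the highest reproducing library and exceeded non-reproducing replicate 1. The one on contig 000066F had 572, 1554, 1995 and 2015 CPM in non-reproducing replicates 1 to 4, against 457 to 686 CPM in old reproducing and 201 to 633 CPM in young reproducing libraries (log2 change 1.59, SE 0.35, adjusted p = 0.0258 by edgeR). It lost its call under 9 of 21 alternatives, among them without old non-reproducing replicate 2, 3 or 4 and without old reproducing replicate 1, 2 or 3.

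The gene model that fell most was maker-000016F-augustus-gene-1.38, 4731 nucleotides on contig 000016F. It had 19.4, 20.9, 19.3 and 4.81 CPM in non-reproducing replicates 1 to 4, against 151, 128, 203 and 23.6 CPM in old reproducing and 99.5, 494, 83.9 and 239 CPM in young reproducing replicates 1 to 4. All non-reproducing libraries were below all reproducing ones, with old reproducing replicate 4 close above them. A log2 change of -3.40 was fitted by edgeR (SE 0.74, adjusted p = 0.0254), and the gene lost its call under 6 of 21 alternatives, among them without old non-reproducing replicate 2, 3 or 4.

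The next largest fall was in maker-000012F-snap-gene-3.84, 3410 nucleotides on contig 000012F, with 2.48, 2.53, 3.47 and 2.21 CPM in non-reproducing replicates 1 to 4. It had 10.96, 7.24, 13.4 and 3.57 CPM in old reproducing and 9.32, 56.1, 5.45 and 24.3 CPM in young reproducing replicates 1 to 4. The groups did not overlap, although old reproducing replicate 4 was close above non-reproducing replicate 3, and young reproducing replicates 2 and 4 stood above the rest. Here edgeR gave a log2 change of -2.44 (SE 0.62, adjusted p = 0.0480). This call was lost under 15 of 21 alternatives, among them without each of the 4 old non-reproducing libraries, without old reproducing replicate 1, 2 or 3 and without young reproducing replicate 4.

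The other 4 genes of the lower pool had log2 changes of -1.40, -1.33, -1.29 and -0.97 and lost their calls under 5 to 12 of the 21 alternatives. A pair of them lay on contig 000001F under the same leading position index, and both were lower in young reproducing than in old reproducing females. The first of the pair had 17.4, 24.6, 12.2 and 9.397 CPM in non-reproducing replicates 1 to 4, against 51.2, 56.7, 25.9 and 62.3 CPM in old reproducing and 26.4, 52.4, 26.1 and 25.7 CPM in young reproducing replicates 1 to 4 (log2 change -1.33, SE 0.33, adjusted p = 0.0438 by edgeR). The other had 16.2, 17.5, 8.85 and 10.2 CPM, against 38.7, 44.6, 21.3 and 49.2 CPM and 26.7, 43.0, 19.9 and 18.4 CPM in the same order of groups and replicates (log2 change -1.29, SE 0.31, adjusted p = 0.0376 by edgeR). In both, the non-reproducing libraries lay below each reproducing library, and old reproducing replicate 4 was the highest library of all rather than the lowest of its group. Neither was called against young reproducing females alone, with adjusted p-values of 0.0823 and 0.0685 by edgeR, nor against old reproducing females alone, with 0.163 for each. Both lost their calls without old non-reproducing replicate 3 or 4 and without old reproducing replicate 1, 2 or 4.

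Outside the pool, a gene pair singled out after its values were seen had the widest gaps below the reproducing libraries, 2.73-fold and 2.01-fold. These 2 gene models also lay on contig 000001F and shared another leading index, 36. One had 0.853, 0.950, 0.672 and 0.265 CPM in non-reproducing replicates 1 to 4, against 2.59 to 3.88 CPM in old reproducing and 4.01 to 8.87 CPM in young reproducing libraries (log2 change -2.76, adjusted p = 0.00365 by edgeR). The other had 2.15, 1.53, 0.952 and 0.265 CPM, against 4.32 to 7.96 CPM and 7.28 to 17.3 CPM in the same order of groups (log2 change -2.80, adjusted p = 0.00924 by edgeR). Their levels ran in parallel over the libraries, and whether the gene models overlap is not given by the IDs, so they may share reads. Both stayed called under all 21 alternatives.

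The 3 called genes with the most reads among those that fell were not separated. The one with the most, on contig 000001F, had 346, 129, 202 and 92.2 CPM in non-reproducing replicates 1 to 4, against 590, 354, 314 and 198 CPM in old reproducing and 1035, 1565, 1135 and 555 CPM in young reproducing replicates 1 to 4 (log2 change -1.70, SE 0.43, adjusted p = 0.0438 by edgeR). Its old groups overlapped and both lay below every young library except for old reproducing replicate 1, which exceeded young reproducing replicate 4. The other 2 had log2 changes of -0.64 and -0.42. All 3 lost their calls under 10 to 13 of 21 alternatives, among them without old non-reproducing replicate 2, 3 or 4 and without old reproducing replicate 1 or 2. The first and the one with a log2 change of -0.64 also lost them without old reproducing replicate 3. The first lost its call without young reproducing replicate 1, 2 or 3 as well.

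Calls were spread over the assembly and over kinds of gene model. Of 66 contigs with at least 20 tested genes, 57 held a higher and 27 a lower call. Among the larger contigs, 34 of 363 genes (9.37%) were higher on contig 000018F and 2 of 317 (0.631%) on contig 000009F, where 4.54% of all tested genes were higher. The stretch with the most higher calls was on contig 000018F, where 8 of 36 tested genes under 1 leading index rose. By mean CPM, 2.22% of genes in the lowest quartile were called higher, then 5.61%, 6.19% and 4.15% in the others, and for lower calls these shares were 0.619%, 0.510%, 0.510% and 0.218%. By length, the share higher was 5.02% in the shortest quartile and 3.82% in the longest, and the share lower 0.328% and 0.582%. No test was made of these shares.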

How the data were processed

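RNA libraries were made with a Qiagen RNeasy kit and a directional NEBNext Ultra II kit, per the labels. STAR and SAMtools are named, without versions, in the submitters' processing notes; the genome build, the counting program and its strand setting are not given in the sources used here. The authors' deposited tables hold raw counts for each gene model, which were tested, and RPKM values, which equalled counts scaled by library totals and 1 length per gene to within 1.26e-06 percent and gave the gene lengths. Each column was matched to its library by the library tag in the labels.

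The tests ran in edgeR 4.0.16 under R 4.3.3. The filter filterByExpr kept 10987 of 21456 gene models and at least 99.8% of each library's counts. TMM factors and a robust quasi-likelihood fit with 1 mean per group were used on all 12 libraries, and the contrast was old non-reproducing minus the mean of both reproducing groups, two-sided, with Benjamini-Hochberg adjustment over all tested genes. CPM values use TMM-scaled library sizes. SE is the absolute log2 change over the root of F. Per-library log2 CPM used a prior count of 2. The pipeline was tested on simulated data. All 18 library pairs within groups differed beyond sampling noise (chi-square per degree of freedom at least 92.8).

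Genes described singly are the 10 largest rises and falls (or fewer) among called, separated genes of at least 10 CPM, and the 3 called genes with the most reads in each direction. A pair of lower genes was added after its values were seen. Alternatives used DESeq2 1.42.0, limma 3.58.1, other scalings, filters and models, and left out each library. The genes, lists and tests were chosen with earlier results of these data known. Gene lists by function were planned and were not run, because the IDs carry no names.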

Additional observations from a re-analysis of the deposited data

Results flagged for a closer look

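Single libraries were compared with the other 3 of their group by a Dixon ratio (its gap to the nearest library as a share of the group's range) for 24 genes and 4 library measures. Of 84 groups of values 9 had a library past the 95% limit. For independent, normally spread values chance gives about 1 in 20 groups, or 4.2. The gene values were unlogged CPM of genes chosen from these same libraries, so that number is no more than a guide.

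In 5 of the 9 the library was old reproducing replicate 4, and each time it was high in a gene called higher in non-reproducing females. It had 2.88 CPM of augustus_masked-000018F-processed-gene-8.3, against 0.198 to 0.513 CPM in the other old reproducing libraries, and 0.173 CPM of augustus_masked-000035F-processed-gene-1.44, against at most 0.0545 CPM, which is 3 reads or fewer in each library. It had 0.807 CPM of the gene on contig 000032F, against at most 0.327 CPM, and 126 and 174 CPM (125.5 and 173.5 before rounding) of the 2 genes on contig 000011F, against at most 43.7 and 22.02 CPM.

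Old non-reproducing replicate 4 was low in maker-000016F-augustus-gene-1.38, at 4.81 CPM against 19.3 to 20.9 CPM. Young reproducing replicate 2 was high in the gene on contig 000032F, at 0.839 CPM against at most 0.408 CPM, and in 1 of the pair of lower genes on contig 000001F, at 52.4 CPM against 25.7 to 26.4 CPM. Young reproducing replicate 4 was low in a gene on contig 000015F, at 42.3 CPM against 55.2 to 57.8 CPM.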

How the results depend on the processing

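Against 550 called genes and 90 called and separated genes, DESeq2 gave 1558 and 180, 1 mean for all reproducing libraries gave 199 and 40, limma-trend gave 86 and 29 on log2(RPKM + 1) and 167 and 44 on log2(RPKM + 0.1), and an adjusted p under 0.01 gave 141 and 35. Leaving out each library gave 215 to 788 and 46 to 539, where separation is easier to meet because fewer libraries are compared. RLE factors (560), upper-quartile factors (383), limma-voom (678) and no filter on low counts (478) moved the first count by less than 1.5 times, and higher calls outnumbered lower ones in each of these fits.

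With the replicate number as a block 193 genes were called and 39 of them were separated. The labels do not say what libraries of the same number have in common. Their deviations from the group means correlated above 0.1 in 3 of 12 pairs (r from -0.458 to 0.361). In the other groups, 0 of 12 libraries correlated best with their own number. Whether the number marks a batch was not tested.

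Leaving out each library gave differences of -5.20 to -2.71 percentage points for the 10 gene models with the most reads, -4.61 to -2.04 for the 100 with the most, 154 to 304 for the effective number of genes and 57.7 to 366.9 for gene models detected. Without old non-reproducing replicate 3 the first 3 of these passed the threshold (adjusted exact permutation p = 0.0485). Thinning all libraries to the smallest total changed no call. Over 504 combinations of a gene described singly and an alternative, 383 stayed called, 121 did not, and 0 changed direction. The cause was not tested in any of these cases. Depth limits the precision of genes near 0 reads, such as augustus_masked-000035F-processed-gene-1.44, with 10 reads in all 8 reproducing libraries.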
